A study of Drosophila melanogaster with 9 samples.

Results

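The introns described here are 71 to 2000 nt long and lie in the middle of their genes, with at least 1 other listed intron wholly upstream and 1 wholly downstream on the same strand. They are 7099 introns in 2266 genes, of the 28666 introns of 5210 genes expressed above 10 RPKM (reads per kilobase of feature, scaled to library depth) and of the 60779 introns listed in the series. The genes were chosen by their mean transcript RPKM in siGFP cells, and that level is given only as a description. The least expressed gene inside this limit had 10.03 RPKM and the most highly expressed gene outside it 9.999 RPKM, while the longest intron inside the length limit had 1997 nt and the shortest outside it 2002 nt. PolyA-selected RNA came from OSCs, a cultured line of somatic cells of the Drosophila ovary grown at 27°C, with 2 biological replicates per group. The 3 groups received siRNAs against Acn (siAcn), against tsu (siTsu) or against GFP as the control (siGFP). Each library comes from a bulk culture, and a knockdown leaves some of the transcript.

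The spliceosome removes introns and deposits the exon junction complex (EJC) on the mRNA just upstream of each exon-exon junction. Tsu, the fly Y14, forms the EJC core together with Mago, eIF4AIII and Btz, and Acn is a subunit of the EJC-associated ASAP complex with RnpS1 and SAP18. The study asked whether a deposited EJC helps to remove neighboring introns, and a middle intron can receive it from a splicing event on either side.

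The knockdowns lowered their targets. Acn had 16.8 and 16.5 RPKM in siAcn cells, against 98.1 and 140.4 RPKM in siGFP cells (log2 change -2.74, SE 0.18, adjusted p = 0.0163, limma). tsu had 9.77 and 9.16 RPKM in siTsu cells, against 128.4 and 111.6 RPKM in siGFP cells (log2 change -3.53, SE 0.14, adjusted p = 0.00062, limma). The values rest on about 18700000 and 13400000 reads in the siAcn libraries, 15900000 and 11500000 in the siTsu libraries and 28800000 and 30400000 in the siGFP libraries, as recovered from the steps of the RPKM values. The 6 markers of ovarian somatic cells (tj, Fas3, piwi, fs(1)Yb, zfh1, eya) were all listed. They summed to 837 to 1069 RPKM in siAcn cells, 526 to 700.4 RPKM in siTsu cells and 1187 to 1412 RPKM in siGFP cells. Each of the 6 had a lower mean in both knockdowns than in siGFP cells. The largest fall in RPKM was that of piwi, whose retained intron is described below. Its mean was 283.4 RPKM in siAcn, 160.1 RPKM in siTsu and 529.6 RPKM in siGFP cells. The mean of tj was 399.0 RPKM in siAcn, 245.6 RPKM in siTsu and 421.1 RPKM in siGFP cells. The sums of the listed germline, hemocyte and muscle markers were low in every library but higher in both knockdowns than in siGFP cells. Single genes did not all rise: vas had a mean of 0.338 RPKM in siTsu and 1.05 RPKM in siGFP cells, and Mef2 2.90 and 3.03 RPKM. Most of the germline sum was AGO3, at 4.07 RPKM in siAcn, 4.27 RPKM in siTsu and 2.39 RPKM in siGFP cells. The 4 listed of 6 germline genes summed to 5.5598 to 7.49 RPKM in siAcn, 4.81 to 6.71 RPKM in siTsu and 3.86 to 4.12 RPKM in siGFP cells. The 2 listed of 4 hemocyte genes, nearly all of it srp, summed to 12.8 to 14.8 RPKM in siAcn, 15.9 to 17.5 RPKM in siTsu and 8.62 to 8.64 RPKM in siGFP cells. The 2 listed of 3 muscle genes summed to 6.02 to 6.48 RPKM in siAcn, 5.94 to 6.43 RPKM in siTsu and 5.0002 to 5.34 RPKM in siGFP cells, and 0 of 3 fat body genes were listed. The part of other cells in the results was not tested. In bulk RNA, fewer cells of a type and less RNA per cell cannot be told apart.

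Retention was measured as an index, the RPKM of the intron as a percentage of its transcript's RPKM, library by library. Each listed interval includes 35 nt of exon on either side, so a read that lies partly in exon may be counted for the intron. No intron or splice site sequence is printed, because only gene annotation of another genome build was used here.

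Most middle introns had a low index in every group. A low index from removal was not told apart from a listed form that these cells do not use. The median index was 0.742% and 0.533% in the siAcn libraries, 0.611% and 0.307% in the siTsu libraries and 0.920% and 0.853% in the siGFP libraries. The deeper siGFP libraries had a read for 5120 and 5117 of the 7099 introns, against 4554 and 4130 in siAcn and 4268 and 3804 in siTsu. The part of depth in these medians was not tested. The upper part of the distribution was close in all 6 libraries, with a 90th percentile of 9.55% and 9.29% in siAcn, 10.2% and 9.94% in siTsu and 9.27% and 9.90% in siGFP. The number above 50% was 58 and 58 in siAcn cells, 73 and 72 in siTsu cells and 50 and 60 in siGFP cells. Both siTsu libraries thus lay above the other 4 in this count.

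Of the 7099 introns, 1027 (14.5%) had no read in any library and 4964 (69.9%) had reads but never exceeded 10% of their transcript. The other 1108 (15.6%), at 691 separate sites in 490 genes, exceeded 10% in at least 1 library and were tested. The count above 10% was 671 and 662 in the siAcn libraries, 730 and 705 in the siTsu libraries and 658 and 704 in the siGFP libraries. An intron that passed only in the group where it is high had to differ: 302 of the 1108 passed in knockdown libraries only and 806 in a siGFP library, whereas 369 passed in all 6. Another 236 passed in a single library, 29 of them on fewer than 5 reads. Alternative forms counted several times, since 888 of the 1108 (80.1%) overlapped another listed intron, compared with 3548 (49.98%) of all 7099.

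Most genes with a retained middle intron had a single such site. Of the 490 genes, 362 had 1 site above 10% and 39 had 3 or more. unc-13, which primes synaptic vesicles for fusion, had 11 sites among its 21 middle introns, Dscam3, an immunoglobulin cell adhesion molecule, had 7 sites among 31, and Doa, an SR protein kinase, had 7 sites among 12. The median gene held 2 middle introns and the largest number in a gene was 32.

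Longer introns had a higher index. In the shortest class, 71 to 100 nt, 81 of 1529 introns (5.30%) exceeded 10% in at least 1 library, as did 211 of 1849 (11.4%) of 101 to 250 nt, 252 of 1351 (18.7%) of 251 to 500 nt, 280 of 1296 (21.6%) of 501 to 1000 nt and 284 of 1074 (26.4%) of 1001 to 2000 nt. The median siGFP index followed the same order, at 0.322%, 0.613%, 1.24%, 1.90% and 2.14%. Longer introns also collect more reads, and the share without any read fell by class, at 28.3%, 19.4%, 10.1%, 5.556% and 2.51%. The gradient was present in each group: of the longest class, 18.5% and 16.9% exceeded 10% in siAcn libraries, 19.7% and 18.6% in siTsu libraries and 18.9% and 20.02% in siGFP libraries. Middle introns of up to 70 nt, the commonest size in flies, exceeded 10% in at least 1 library for 232 of 6735 (3.44%), compared with 503 of 3707 first introns (13.6%) and 244 of 1913 last introns (12.8%) of 71 to 2000 nt. These shares are descriptions, since introns of a gene share their reads and libraries.

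**Figure D1:**
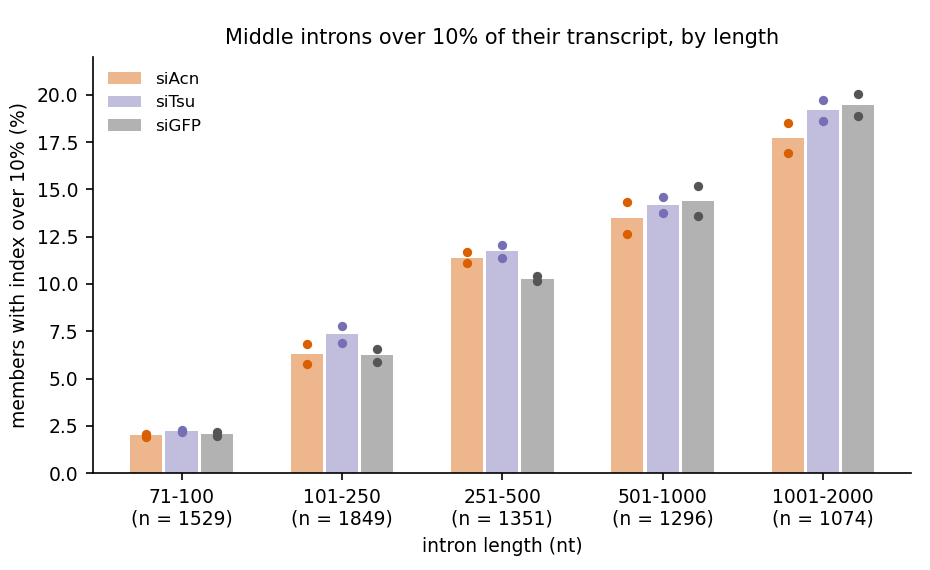
Share of middle introns with an index over 10% (y axis, percent of the introns of a length class) by intron length in nt (x axis), for siAcn, siTsu and siGFP cells. Bars are means of 2 libraries and points are the libraries. The share is near 2% at 71 to 100 nt and between 16.9% and 20.02% at 1001 to 2000 nt, and the 3 groups lie close together in every class.

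By length, 6886 introns matched exactly 1 intron of their gene in the newer BDGP6 annotation. Of these, 5759 (83.6%) lie between coding exons, 807 (11.7%) in the 5′ UTR and 123 (1.79%) in the 3′ UTR. The label of a middle intron was not exact for all of them. In BDGP6, 5610 (81.5%) are neither first nor last in any transcript, but 598 (8.68%) are the first intron of every annotated transcript that has them. Introns that lie partly in an exon of another form exceeded 10% more often (407 of 1605, 25.4%) than those free of exons (669 of 4878, 13.7%). Of the 285 that lie wholly within an exon, 95.1% had no read and 1 exceeded 10%, whereas 12.9% of those free of exons had no read. Whether reads in these 285 were left out of the intron values was not tested. Their share is therefore not a measure of their retention.

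The highest indices were found in all groups. A 1833 nt intron of cert, which encodes a ceramide transfer protein (chr3L:8277394-8279226, dm3, minus strand), had an index of 211% and 158% in siAcn cells, 185% and 122% in siTsu cells and 249% and 265% in siGFP cells. An index above 100% means more reads per length in the intron than over the transcript. A 915 nt intron of smg, a translational repressor of the embryo (chr3L:8984638-8985552, minus strand), was at 91.8% and 96.0% in siAcn, 104% and 92.5% in siTsu and 77.7% and 104% in siGFP cells. The groups overlapped for smg, and neither knockdown passed the test for either gene. For 56 of the 7099 introns the mean siGFP index was above 50%, and for 15 above 100%. These high values include introns of Ten-a, Caps and CG11456, at 162% and 314%, 157% and 119%, and 97.2% and 136% in siGFP cells. The Ten-a intron lies partly in an exon of another form, as does that of smg.

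For siAcn against siGFP, 11 of the 1108 introns rose and 0 fell in the limma fit at an adjusted p under 0.05. The percentages over all 2848 introns tested were 1.33% for higher and 0% for lower calls, and the share of 0.993% among middle introns is not above this background. At an unadjusted p under 0.05, 109 were higher and 74 lower. Of the 11 calls, 6 exceeded 10% in a siGFP library and 5 (in piwi, corn, CG31731 and Efa6) only in knockdown libraries, so that these 5 entered the test through the groups in which they were high and are given as a description. With 10% required in a siGFP library, 2 passed. The 11 calls are 8 sites in 8 genes, among them piwi, garnet (listed as g) and SNF4Agamma, and their index was 2.58 to 12.4 times that of siGFP cells. Over all introns with at least 30 reads, 17.9% had both siAcn libraries above both siGFP libraries, a separation that a call nearly requires. All of the 11 lay above both siGFP libraries in both siAcn libraries, but each depends on the fit: 0 to 2 members passed when any 1 library was left out, and 0 passed without the variance trend or without the 10% filter (170 and 510 at an unadjusted p under 0.05).

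The piwi intron of 604 nt (chr2L:10984342-10984945, minus strand, coding, free of exons) had the largest index of the 8 sites. piwi encodes the nuclear Argonaute that silences transposons in this cell type. The index was 72.7% and 98.9% in siAcn libraries, 48.2% and 53.1% in siTsu libraries and 6.002% and 7.89% in siGFP libraries. Both knockdowns lay clear of siGFP cells, with siAcn above siTsu, and the intron entered the test through the knockdowns alone. The log2 change was 3.62 (SE 0.24, adjusted p = 0.00314, limma) in siAcn cells and 2.88 (SE 0.24, adjusted p = 0.00448, limma) in siTsu cells, and both changes use the same siGFP libraries. The intron itself had 230.6 and 247 RPKM in siAcn cells and 94.4 and 66.1 RPKM in siTsu cells, against 36.7 and 35.3 RPKM in siGFP cells, from 5118, 1520 and 1433 reads. The piwi transcript had 317 and 249.7 RPKM in siAcn cells and 195.7 and 124.4 RPKM in siTsu cells, against 612 and 447 RPKM in siGFP cells. The transcript was called lower in siTsu (log2 change -1.74, SE 0.27, adjusted p = 0.0289, limma) and missed the threshold in siAcn (log2 change -0.89, SE 0.27, adjusted p = 0.442, limma). On intron RPKM alone, the rise passed in siAcn (log2 change 2.73, adjusted p = 0.012) and missed in siTsu (log2 change 1.13, adjusted p = 0.0919). Without siAcn replicate 2 the siAcn change was 3.40 (adjusted p = 0.0733), and without siTsu replicate 1 or 2 the siTsu change was 2.95 (adjusted p = 0.0594) or 2.81 (adjusted p = 0.0773).

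The introns beside it had lower indices. The nearest listed intron upstream in piwi, of 66 nt, was at 1.38% and 0.666% in siAcn, 10.3% and 2.58% in siTsu and 2.10% and 1.85% in siGFP cells. Both siTsu libraries lay above siGFP cells there, on 48 and 84 reads, and the change of 1.39 missed the threshold (adjusted p = 0.605, limma). The nearest downstream intron of piwi, of 53 nt, was at 0.692% and 0.983% in siAcn, 1.06% and 1.71% in siTsu and 0.930% and 0.845% in siGFP cells and was not tested. A second middle intron of piwi, of 119 nt (chr2L:10983777-10983895), was at 11.8% and 9.57% in siAcn, 4.63% and 5.93% in siTsu and 3.14% and 2.35% in siGFP cells. Both knockdowns lay above siGFP cells there, but the log2 changes of 1.96 and 0.95 missed the threshold (adjusted p = 0.140 and 0.405, limma).

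garnet encodes the delta subunit of the AP-3 adaptor, which sorts cargo to lysosome-related organelles. Its 904 nt intron (chrX:13624678-13625581, minus strand, coding) was at 43.8% and 36.8% in siAcn cells, 27.1% and 20.9% in siTsu cells and 14.2% and 10.9% in siGFP cells. The groups did not overlap. The siAcn change was 1.68 (SE 0.25, adjusted p = 0.0278, limma) and the siTsu change 0.94 (SE 0.25, adjusted p = 0.111). The intron RPKM of garnet overlapped between groups, at 17.9 and 10.9 in siAcn and 12.3 and 7.79 in siGFP cells, whereas the transcript had 40.9 and 29.7 RPKM in siAcn cells and 86.7 and 71.5 RPKM in siGFP cells. It was the only one of the 8 sites whose intron RPKM was not higher in both siAcn libraries. A listed 1981 nt form of garnet with the same downstream end, which contains an exon of another form, missed the test in siAcn and siTsu cells (log2 changes 1.47 and 0.79, adjusted p = 0.0816 and 0.244, limma).

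SNF4Agamma encodes the gamma subunit of the energy sensor AMPK. Its 1085 nt form in the 5′ UTR (chr3R:16982134-16983218, plus strand) was at 34.99% and 37.1% in siAcn, 18.7% and 20.6% in siTsu and 12.3% and 15.6% in siGFP cells. In BDGP6 this form is the first intron of the annotated transcript that has it, and the nearest listed intron downstream had 16181 nt. The siAcn libraries lay above all others (log2 change 1.36, SE 0.22, adjusted p = 0.042, limma). Its 3 listed forms share the start and 283 siAcn reads, so they are 1 site. The 1085 nt form lies partly in an exon of another form, while the 1026 nt form is free of exons. Efa6, an exchange factor for the small GTPase Arf6, had a 247 nt coding intron (chr3R:18431293-18431539, plus strand) at 17.5% and 17.0% in siAcn, 36.2% and 52.4% in siTsu and 5.99% and 4.84% in siGFP cells. It passed in both knockdowns, on 30, 48 and 19 reads (log2 change 1.59, SE 0.28, adjusted p = 0.0458 in siAcn and 2.90, SE 0.28, adjusted p = 0.00448 in siTsu, limma).

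CG31731, named Eato in newer annotation and encoding an ABC transporter, had the same order of groups. Its 234 nt intron (chr2L:13785976-13786209, plus strand) was at 12.9% and 14.8% in siAcn, 46.0% and 35.8% in siTsu and 4.09% and 4.05% in siGFP cells. The changes were 1.67 (SE 0.28, adjusted p = 0.042, limma) and 3.19 (SE 0.28, adjusted p = 0.00448, limma), from 33, 120 and 18 reads. The 794 nt intron of CG15130 (chr2L:20423481-20424274, minus strand) was at 51.0% and 50.2% in siAcn, 42.1% and 34.8% in siTsu and 11.8% and 12.6% in siGFP cells. Both knockdowns passed (log2 changes 1.99 and 1.58, adjusted p = 0.00933 and 0.0115, limma), while its transcript had 3.77 and 5.18 RPKM in siAcn cells against 9.20 and 13.1 RPKM in siGFP cells.

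In the last 2 of the 8 sites the siTsu value missed the threshold too, as it did in garnet and SNF4Agamma. The 455 nt intron of corn (chr3L:7137382-7137836, minus strand) was at 21.0% and 24.4% in siAcn, 10.8% and 12.9% in siTsu and 3.89% and 5.29% in siGFP cells, with a siAcn change of 2.22 (SE 0.33, adjusted p = 0.0267, limma). The corn intron lies partly in an exon of another form. The 148 nt intron of CG14657 in the 3′ UTR (chr3R:645633-645780, minus strand) was at 33.1% and 28.4% in siAcn, 8.64% and 9.40% in siTsu and 10.8% and 7.10% in siGFP cells. Here siTsu and siGFP overlapped, and siAcn stood above both (log2 change 1.78, SE 0.31, adjusted p = 0.0458, limma). The siAcn and siTsu changes of corn and CG14657 were not told apart by the direct comparison (adjusted p = 0.218 and 0.0564).

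**Figure D2:**
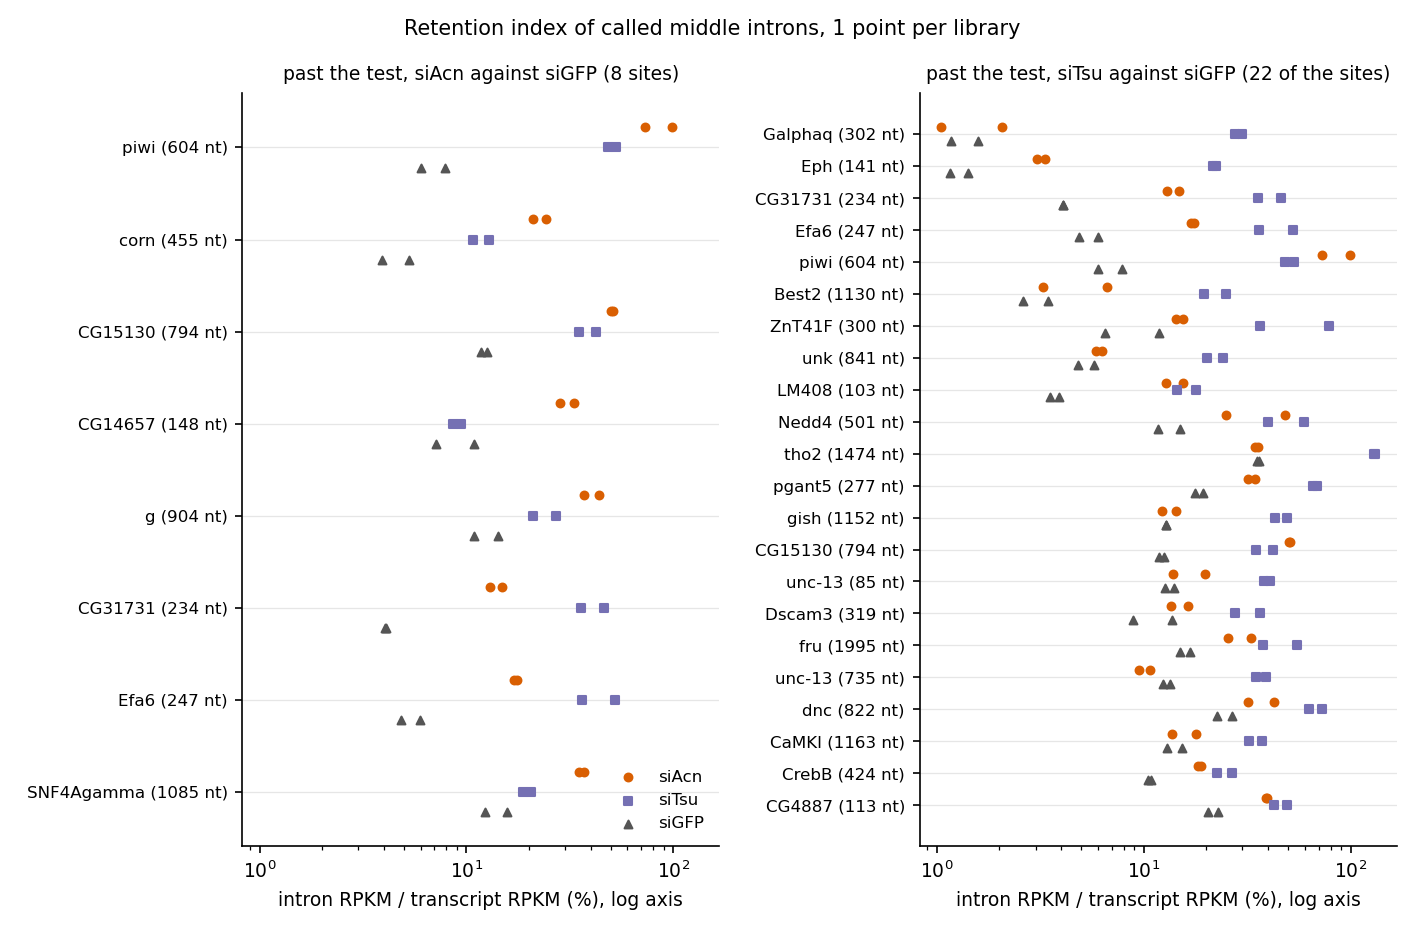
Index (x axis, intron RPKM as a percent of transcript RPKM, log scale) of the 8 sites past the test in siAcn (left) and 22 of the 23 sites past it in siTsu (right), ordered by the size of the change, with 1 point per library for siAcn, siTsu and siGFP cells. In both panels the points of the knockdown tested lie to the right of both siGFP points, as for piwi at 72.7% and 98.9% in siAcn against 6.002% and 7.89% in siGFP cells. The siAcn points of Galphaq and tho2 overlap the siGFP points.

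For siTsu against siGFP, 27 of the 1108 middle introns rose and 0 fell, against 2.56% of all introns tested higher and 0.211% lower. The share of 2.44% is near this background. At an unadjusted p under 0.05, 151 were higher and 75 lower. Of the 27 calls, 15 exceeded 10% in a siGFP library and 12 only in knockdown libraries, 6 of them only in siTsu (in Galphaq, Eph, Best2 and unk). The 12 were tested because they were high in a knockdown, and the split between higher and lower calls partly follows from this entry rule. With 10% required in a siGFP library, 12 passed. The calls are 23 sites in 22 genes with 2.12 to 21.0 times the siGFP index, and all 27 lay above both siGFP libraries in both siTsu libraries. A call on 2 against 2 libraries nearly requires this separation, which 15.8% of all introns with at least 30 reads also had. Without siTsu replicate 1 or siTsu replicate 2, 0 members passed, with 231 and 157 at an unadjusted p under 0.05, and all 27 kept their direction with log2 changes of at least 0.97 and 1.17. Without 1 of the other libraries 7 to 19 members passed, and without the 10% filter 0 passed (658 at an unadjusted p under 0.05).

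The largest rise was in Galphaq, which encodes the alpha subunit of the Gq protein and couples receptors to phospholipase C. Its 302 nt intron (chr2R:8505646-8505947, plus strand, coding, partly in an exon of another form) was at 29.98% and 27.6% in siTsu cells, 2.06% and 1.05% in siAcn cells and 1.57% and 1.17% in siGFP cells. Only the siTsu libraries stood apart, and the intron entered the test through them alone (log2 change 4.24, SE 0.73, adjusted p = 0.0302, limma; siAcn 0.11, SE 0.73, adjusted p = 0.958). The transcript hardly moved, at 58.4 and 56.7 RPKM in siTsu and 59.4 and 60.6 RPKM in siGFP cells, and the intron held 170 reads in siTsu against 18 in siGFP. Its nearest introns, of 62 nt upstream and 230 nt downstream, had mean indices of 0% and 5.66% in siTsu cells against 0% and 5.57% in siGFP cells.

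Eph, the ephrin receptor tyrosine kinase, is on the small chromosome 4. The 141 nt intron of Eph (chr4:634422-634562, plus strand) was at 21.6% and 22.2% in siTsu, 3.05% and 3.34% in siAcn and 1.41% and 1.15% in siGFP cells (log2 change 3.88, SE 0.60, adjusted p = 0.0267, limma), on 34, 9 and 7 reads. The siTsu libraries stood far above all others, the intron entered the test through them alone, and the few reads limit the precision of the fold.

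The other introns named by the same rule were Best2, unk, ZnT41F and LM408. Best2, of the bestrophin chloride channels, had a 1130 nt intron (chr3L:6245470-6246599, minus strand) at 19.6% and 25.03% in siTsu, 3.27% and 6.61% in siAcn and 2.61% and 3.44% in siGFP cells (siTsu change 2.78, SE 0.51, adjusted p = 0.0389, limma). unk, a zinc finger protein, had an 841 nt intron (chr3R:18980690-18981530, minus strand) at 20.3% and 24.2% in siTsu, 5.86% and 6.28% in siAcn and 4.80% and 5.75% in siGFP cells (siTsu change 2.02, SE 0.36, adjusted p = 0.0336, limma). Its 164 nt form, which has the same downstream end and begins after an exon within the longer form, had 36.2% and 39.2% in siTsu, 7.64% and 6.90% in siAcn and 4.77% and 6.42% in siGFP cells (change 2.71, SE 0.31, adjusted p = 0.00769, limma). ZnT41F, a zinc transporter, had a 300 nt intron (chr2R:1662935-1663234, minus strand) at 36.6% and 79.1% in siTsu, 15.5% and 14.3% in siAcn and 6.47% and 11.9% in siGFP cells. Its siTsu libraries differed from each other more than those of the other named genes (change 2.57, SE 0.42, adjusted p = 0.0275, limma). The ZnT41F transcript was lower, at 9.80 and 8.92 RPKM in siTsu against 27.6 and 23.3 RPKM in siGFP cells (log2 change -1.35, SE 0.15, adjusted p = 0.0142, limma). On intron RPKM alone the ZnT41F change of 1.14 missed the threshold (adjusted p = 0.124, limma). LM408, a lysosomal alpha-mannosidase, had a 103 nt intron (chr2L:10459281-10459383, plus strand) at 17.9% and 14.5% in siTsu, 15.5% and 12.7% in siAcn and 3.51% and 3.897% in siGFP cells. It passed in siTsu (change 2.02, SE 0.35, adjusted p = 0.03, limma) and missed in siAcn (change 1.85, SE 0.35, adjusted p = 0.0562, limma), on 29, 16 and 11 reads. The LM408 intron entered the test through the knockdown libraries alone, so its values are given as a description.

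The remaining siTsu sites were chosen for naming after their values were seen. A 1474 nt intron of tho2, a subunit of the THO complex that links transcription to mRNA export (chr2L:2138156-2139629, minus strand), was at 131% and 129% in siTsu, 35.8% and 34.4% in siAcn and 36.1% and 35.1% in siGFP cells (change 1.86, SE 0.18, adjusted p = 0.00448, limma). This intron lies partly in an exon of another form, and a listed 1471 nt form is free of exons. The tho2 transcript was lower, at 20.3 and 18.8 RPKM in siTsu against 39.2 and 34.5 RPKM in siGFP cells (log2 change -0.88, SE 0.13, adjusted p = 0.0283, limma). On intron RPKM alone the tho2 change of 0.95 missed the threshold (adjusted p = 0.0559, limma). A 277 nt intron of pgant5, an enzyme that starts mucin-type O-glycosylation (chr2L:5077258-5077534, minus strand), was at 68.6% and 66.1% in siTsu, 34.5% and 31.9% in siAcn and 17.7% and 19.3% in siGFP cells (change 1.86, SE 0.19, adjusted p = 0.0045, limma). The siAcn libraries lay between the other 2 groups for pgant5 and on the siGFP level for tho2. A 1152 nt intron of gish, a casein kinase I (chr3R:12118557-12119708, plus strand), was at 43.2% and 49.4% in siTsu, 12.3% and 14.3% in siAcn and 12.9% and 12.8% in siGFP cells (change 1.84, SE 0.22, adjusted p = 0.01, limma). Besides CG15130, the others are in Nedd4, CrebB, dnc, fru, Dscam3, CG4887, CaMKI and unc-13, where 2 introns of 85 and 735 nt passed. Nedd4, CrebB, dnc and fru, which encode a ubiquitin ligase, a CREB transcription factor, a cAMP phosphodiesterase and a transcription factor of sexual behavior, carry theirs in the 5′ UTR as the first intron of each annotated transcript that has it. The nearest listed intron downstream had 4099 nt in Nedd4, 601 nt in CrebB, 29169 nt in dnc and 42273 nt in fru. The called intron of dnc lies partly in an exon of another form.

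The index is a ratio, and both terms moved at some sites. The sites were chosen by this ratio in the same libraries, so a higher intron RPKM or a lower transcript follows in part from that choice. The shares over all introns and transcripts are given for scale only. Of the 8 siAcn sites, 7 had more intron RPKM in both siAcn libraries than in either siGFP library, and 4 passed a test on intron RPKM alone, for which the percentages over all introns were 2.07% higher and 0.246% lower. Their transcripts passed in neither direction, against 0.0543% of all 7362 transcripts higher and 0.0136% lower. Of the 23 siTsu sites, 22 had more intron RPKM in both siTsu libraries and 14 passed on intron RPKM alone, against 2.53% of all introns higher and 3.58% lower. Transcripts were called lower for 7 of these sites and higher for 1, unk, against 2.46% of all transcripts lower and 1.22% higher. The exception was CaMKI, a calmodulin-dependent kinase on chromosome 4, whose 1163 nt intron was at 37.2% and 32.1% in siTsu, 17.96% and 13.6% in siAcn and 15.4% and 13.0% in siGFP cells. Its intron had 10.1 and 9.15 RPKM in siTsu and 13.3 and 8.48 RPKM in siGFP cells and thus no rise (log2 change -0.14, SE 0.32), while its transcript was lower (27.3 and 28.5 against 86.4 and 65.3 RPKM, log2 change -1.40, SE 0.17, adjusted p = 0.0175, limma). Over the 1108 introns, 39 were called higher and 46 lower on intron RPKM alone in siTsu cells and 11 higher and 5 lower in siAcn cells. Which transcripts are listed depends on siGFP levels, which are also the denominator of the siGFP index.

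**Figure D3:**
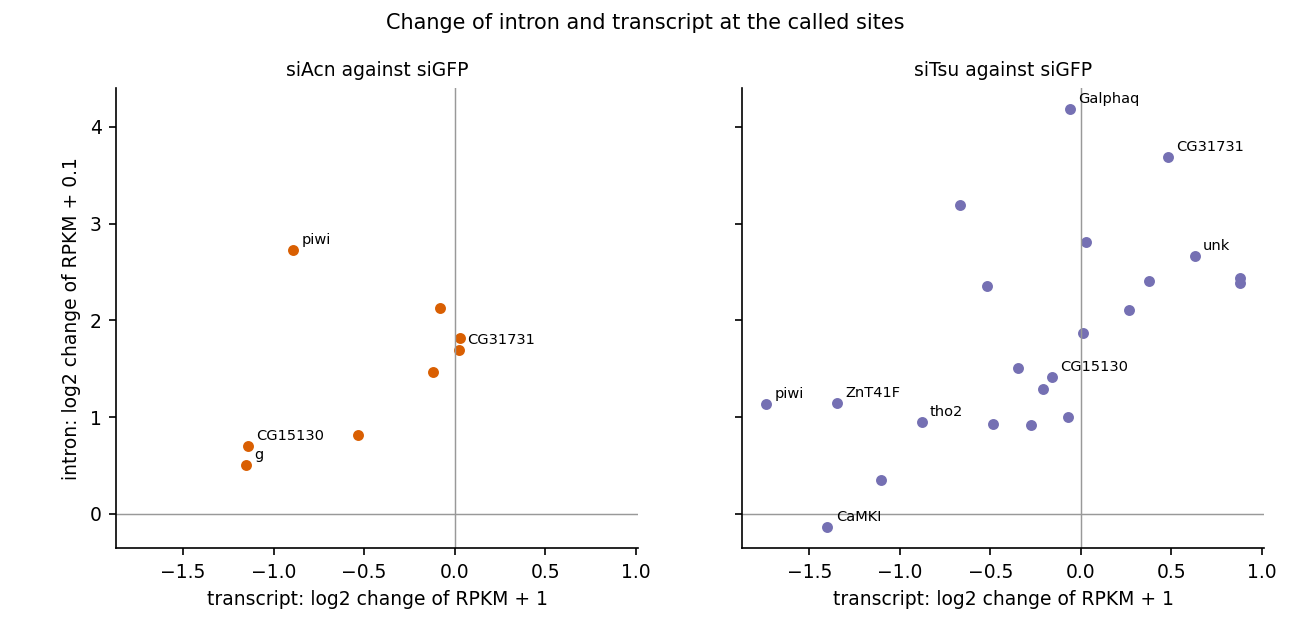
Log2 change of intron RPKM (y axis, 0.1 RPKM added) against log2 change of transcript RPKM (x axis, 1 RPKM added) for the 8 siAcn sites (left) and 22 of the 23 siTsu sites (right), each against siGFP. All 8 siAcn points and the siTsu points other than CaMKI (-0.14) lie above 0 on the y axis, piwi lies at a transcript change of -0.89 in siAcn and -1.74 in siTsu, and Galphaq at -0.06 on the x axis.

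The introns beside the called sites are given as a description, because the sites were chosen for a raised index and their neighbors were not, and most neighbors were too low to enter the test. The 8 siAcn sites had a median index of 33.4% in siAcn and 7.96% in siGFP cells, whereas their 16 nearest introns upstream and downstream had medians of 0% in siAcn and 1.09% in siGFP cells, and 2 of these 16 exceeded 10% in some library and were tested, with 0 called. The 23 siTsu sites had medians of 40.9% in siTsu and 11.3% in siGFP cells, against 1.33% in siTsu and 0.871% in siGFP cells for their 46 nearest introns, of which 7 exceeded 10% in some library and were tested, with 2 called. Both called neighbors are in unc-13, whose 85 and 735 nt introns (chr4:894787-894871 and chr4:895094-895828, minus strand) follow each other across a 222 nt exon. The 735 nt intron was at 39.2% and 34.8% in siTsu, 9.52% and 10.7% in siAcn and 13.4% and 12.4% in siGFP cells, and the 85 nt intron at 40.7% and 38.1% in siTsu, 13.9% and 19.7% in siAcn and 14.03% and 12.6% in siGFP cells. Both rose in siTsu together (changes 1.49 and 1.54, adjusted p = 0.0267 and 0.0271, limma). In gish, the 2508 nt intron downstream of the called one was at 19.5% and 18.4% in siTsu against 8.06% and 7.41% in siGFP cells and missed the test (adjusted p = 0.142). The neighbors were mostly short, with medians of 61 nt at the siAcn sites and 81 nt at the siTsu sites against 529.5 and 501 nt for the called introns, and short introns hold few reads, so the contrast in index is limited by depth. The nearest junction lay at a median of 175.5 nt upstream and 181 nt downstream of the siAcn sites and at 179 and 172 nt for the siTsu sites, compared with 210 and 209 nt over all 7099 introns.

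**Figure D4:**
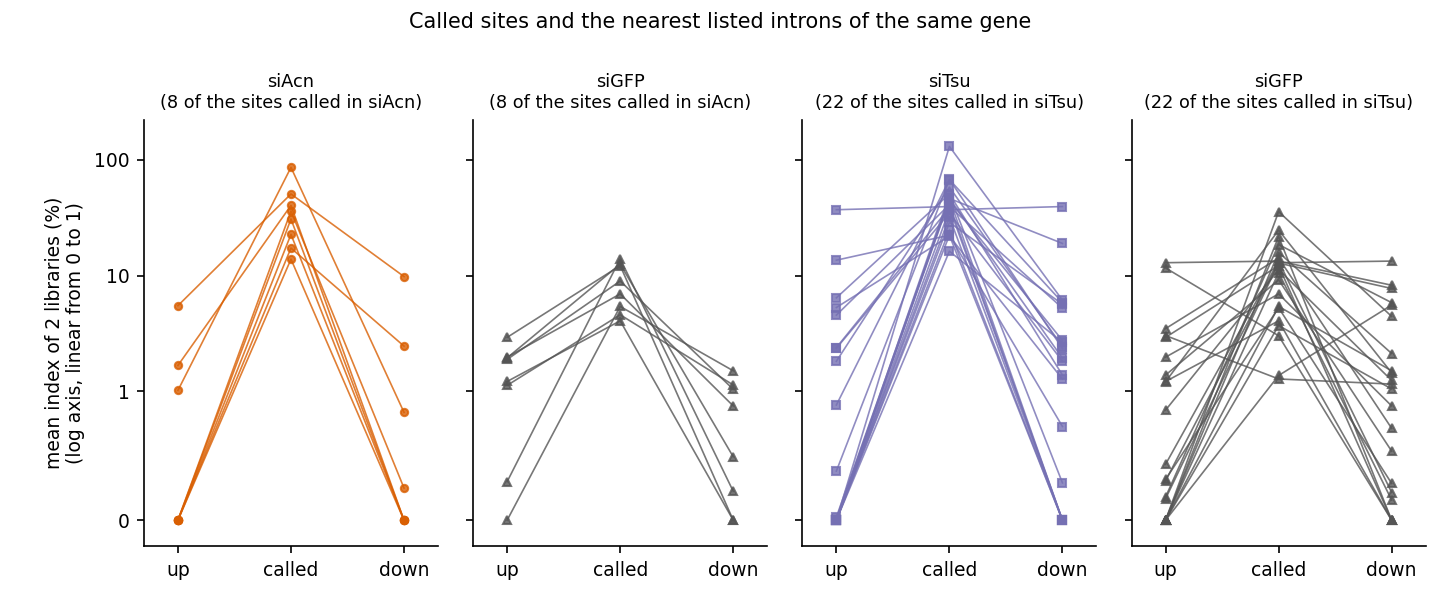
Mean index of 2 libraries (y axis, percent, log scale above 1 and linear below) for each called site and its nearest listed introns upstream and downstream in the same gene, with 1 line per site. The first 2 panels show the 8 siAcn sites in siAcn and siGFP cells and the last 2 show 22 of the 23 siTsu sites in siTsu and siGFP cells. In siTsu cells the called intron is the high point of every line but that of the 735 nt intron of unc-13 (37.0%, beside 39.4% downstream).

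When siTsu cells were set directly against siAcn cells, 6 introns at 5 sites in 4 genes were higher in siTsu and 0 lower, against 0.281% higher and 0.246% lower over all introns tested. At an unadjusted p under 0.05, 136 were higher and 95 lower. The 164 nt form of unk, above 10% in siTsu libraries only, differed most (change 2.34, adjusted p = 0.0369), then tho2 (change 1.88, adjusted p = 0.0188), the 735 nt intron of unc-13 (change 1.85, adjusted p = 0.0369) and gish (change 1.79, adjusted p = 0.0369). Another intron of unc-13, of 988 nt (chr4:892852-893839, minus strand), was at 108% and 85.2% in siTsu, 33.1% and 31.9% in siAcn and 47.6% and 51.8% in siGFP cells. Its siAcn libraries were the lowest and its siTsu libraries the highest (siTsu against siAcn 1.55, SE 0.20, adjusted p = 0.0369, limma; siTsu against siGFP 0.94, adjusted p = 0.0642). Of the 6 calls, 0 remained when any 1 of the 6 libraries was left out. piwi was not among them (siTsu against siAcn -0.74, adjusted p = 0.1798, limma).

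Chromosome 4 stood out after the values had been seen. This small chromosome is largely heterochromatic and rich in repeats. It carries 185 of the 7099 introns and 53 of the 1108 tested, and 5 of the 27 siTsu calls lie on it (9.43% of 53, against 2.56% of all introns) but 0 of the 11 siAcn calls. Of the 53, 26 exceeded 10% in a siGFP library, compared with 806 of the 1108, so the share of calls depends in part on the entry rule. Among the 124 introns of chromosome 4 with at least 30 reads over the 6 libraries, in 34 genes, the median index was 5.69% and 5.69% in siTsu, 3.29% and 2.95% in siAcn and 3.76% and 3.41% in siGFP cells. The 2692 introns of other chromosomes had medians of 3.72% and 3.33% in siTsu, 3.69% and 3.41% in siAcn and 4.02% and 4.06% in siGFP cells. The siTsu libraries were thus the highest on chromosome 4 and not elsewhere. In 57 of the 124 (46.0%) both siTsu libraries lay above both siGFP libraries and in 21 (16.9%) both lay below, compared with 419 (15.6%) and 875 (32.5%) of the 2692, and with 15.8% above and 35.5% below over all introns with 30 reads. In siAcn cells the same counts on chromosome 4 were 21 (16.9%) and 37 (29.8%), against 17.9% and 26.9% of all introns. The 157 other listed introns of chromosome 4 had both siTsu libraries above siGFP in 54 (34.4%) and below in 37 (23.6%). Transcripts of the 34 genes had a median siTsu level of 0.859 times that of siGFP cells, and those of the 1093 genes elsewhere 0.880 times, while intron RPKM was at 0.981 and 0.734 times. Introns of 1 gene are not independent, and with 2 libraries per group an exact permutation test of the medians cannot pass a threshold of 0.05. The chromosome was chosen after its values were seen and was not tested.

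**Figure D5:**
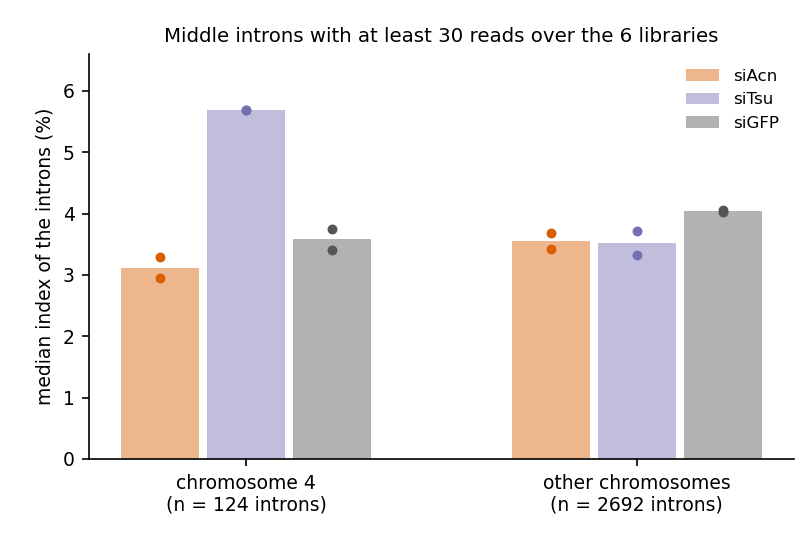
Median index (y axis, percent) of middle introns with at least 30 reads over the 6 libraries, for 124 introns of chromosome 4 (left) and 2692 of other chromosomes (right). Bars are means of the 2 library medians and points are the libraries of siAcn, siTsu and siGFP cells. On chromosome 4 the 2 siTsu points coincide at 5.69%, above siAcn and siGFP, while elsewhere the siGFP points are highest.

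Beyond the called sites, introns differed from siGFP cells in both directions. Of 1106 middle introns above 10% with a ratio, 111 were at 2 or more times the siGFP index and 97 at 0.5 times or less in siAcn. The counts were 162 and 96 in siTsu cells, and all of these include the called introns. Among introns of every position and length, 2810 had a ratio, with counts of 373 and 271 in siAcn and 431 and 294 in siTsu cells. Since 302 of the 1108 middle introns passed 10% in knockdown libraries only, the excess of higher values partly follows from this entry rule. Over the 2816 middle introns with at least 30 reads, the median index was 0.890 times the siGFP value in siAcn and 0.873 times in siTsu cells. The lowest adjusted p among negative changes was that of a 925 nt intron of the cadherin CadN in siAcn cells, at 9.15% and 10.2% in siAcn, 21.0% and 26.6% in siTsu and 23.7% and 23.5% in siGFP cells (log2 change -1.26, SE 0.24, adjusted p = 0.057, limma). The siAcn libraries were below all others, and the difference missed the threshold. In siTsu cells the lowest was a 76 nt intron of CG7115 at 0% and 0% in siTsu, 2.63% and 6.49% in siAcn and 18.5% and 7.87% in siGFP cells (adjusted p = 0.0642, limma), on 0, 3 and 13 reads.

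Pathway genes were counted by list, without a test of the lists. Of 6 lists, the 7 EJC and ASAP genes had 1 middle intron, the 6 NMD factors 4, the 16 SR proteins and splicing regulators 31, the 17 somatic piRNA genes 16, the 8 MAPK genes 5 and the 9 cytoskeleton and adhesion genes 22. Of these 79 introns, 3 (3.797%) exceeded 10% in some library, beside 15.6% of all 7099: both piwi introns and a 255 nt intron of tra2, a splicing regulator, at 10.8% and 2.90% in siAcn, 2.87% and 2.78% in siTsu and 8.35% and 3.30% in siGFP cells. Only the 604 nt intron of piwi was called, in both knockdowns, and it entered the test through them. rl, the ERK gene, had no middle intron of this size above 10%, and 4 listed forms in CG8671 did. The study tested the first intron of CG8671 by RT-PCR, and the listed forms were not matched to that intron here. The 1454 nt intron of CG8671 (chr2L:21278430-21279883, plus strand) was at 16.2% and 18.3% in siAcn, 26.6% and 24.1% in siTsu and 15.3% and 20.7% in siGFP cells, with siTsu highest and a change of 0.50 that missed the test (adjusted p = 0.318).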

How the data were processed

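PolyA-selected, strand-specific RNA-seq libraries of OSCs were used, 2 each for siAcn, siTsu and siGFP. The authors deposited RPKM values per gene and per intron, and Bowtie, GSNAP and the dm3 build are listed in the submitters' processing notes. Versions are not given in the sources used here. Each intron interval included 35 nt of exon on either side, and coordinates are those of dm3 without these flanks. The steps between low RPKM values gave whole reads for every value within 0.1 read, from which depths were taken. Libraries made by rRNA depletion were not used here.

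The index was tested as log2((intron RPKM + 0.1)/(gene RPKM + 0.1)) with limma 3.58.1 in R 4.3.3, with a variance trend and 3 groups of 2 libraries in one fit. It was tested for the 2848 introns above 10% in any library of genes above 10 RPKM in siGFP, with Benjamini-Hochberg adjustment over all of them and a threshold of 0.05. Transcripts were tested on log2(RPKM + 1). A log2 change on an offset scale understates changes of low values. Overlapping called introns of a gene were counted as 1 site. Scripts ran in Python 3.11.15 and were tested on simulated data.

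The members and gene lists were chosen with earlier results of these data known. Introns named were those of piwi, garnet and CG8671 above 10%, per knockdown the 10 called introns with the largest rise (1 form per site), the 5 with the highest siGFP index, up to 5 that differed between knockdowns, their nearest introns, and up to 3 per gene list. The 5 with the highest siGFP index came only from introns past a minimum of siGFP reads, with 1 form per overlapping set. An intron of 1 siTsu site is counted but not reported here. Introns were annotated from BDGP6 by gene, strand and exact length, and no coordinates were converted. p-values measure only the spread between replicate cultures, pooled over the 3 groups and moderated by limma with the spread of the other introns or transcripts.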

Additional observations from a re-analysis of the deposited data

How the results depend on the processing

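Counts of called middle introns depended on how the spread was estimated and on which introns were tested, and the cause of each shift was not tested. In the order siAcn against siGFP, siTsu against siGFP and siTsu against siAcn, the counts were 11, 27 and 6. They were 0, 0 and 0 without the 10% filter (510, 658 and 669 at an unadjusted p under 0.05), where 23004 introns were tested, and 0, 10 and 10 without the variance trend (170 for siAcn at an unadjusted p under 0.05). They were 14, 63 and 46 with an offset of 1 RPKM, 37, 57 and 50 in transcripts over 20 RPKM, and 16, 85 and 53 on intron RPKM alone. They were 2, 12 and 7 with 10% required in a siGFP library, 1, 17 and 6 with at least 30 reads, and 3, 11 and 2 with reads thinned to the shallowest library. They were 1, 21 and 0 with only the groups compared (225 at an unadjusted p under 0.05 for the last) and 1, 2 and 0 for introns that overlap no other (42 for the last). Of settings chosen after seeing the data, introns free of annotated exons gave 3, 13 and 4, and leaving out chromosome 4 gave 11, 19 and 4. Leaving out 1 library at a time gave 0 to 2, 0 to 19 and 0 to 0.

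The median fold of the index over middle introns above 10% was 0.981 in siAcn (0.890 with at least 30 reads, 0.924 to 1.05 with 1 library left out) and 1.03 in siTsu cells (0.873 with at least 30 reads, 0.991 to 1.10 with 1 library left out). On intron RPKM alone the siTsu change turned to -0.14 in CaMKI and to -1.33 in Caps. Each called intron kept its direction under the alternatives in which it was tested, apart from CaMKI. With the replicate number as a block the counts were 10, 31 and 2, and 8 of 11, 25 of 27 and 2 of 6 calls were kept. The siTsu median fold from same-numbered ratios of this replicate block was 1.02. The labels give the libraries a replicate number and do not say whether same-numbered libraries were prepared together. The correlations of their deviations were 0.0933 (siGFP and siAcn), 0.0606 (siGFP and siTsu) and 0.0377 (siAcn and siTsu). Such values over many introns with few reads cannot settle whether same-numbered libraries share a batch. Depth limits short introns most, as 28.3% of those of 71 to 100 nt had no read.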

Other observations

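Several introns pointed down in a knockdown without passing the test, and they are given as values. CG10948 held a pair of neighboring long introns of this kind. Its 1196 nt intron (chr3L:12838954-12840149, minus strand) was at 23.2% and 23.6% in siAcn, 39.8% and 26.5% in siTsu and 51.3% and 59.5% in siGFP cells (siAcn adjusted p = 0.0629, siTsu adjusted p = 0.163, limma). Its 1213 nt intron (chr3L:12840257-12841469) was at 21.0% and 25.6% in siAcn, 19.8% and 17.8% in siTsu and 32.9% and 43.3% in siGFP cells (siAcn adjusted p = 0.195, siTsu adjusted p = 0.0789, limma). Both knockdowns lay below both siGFP libraries at both introns.

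In Liprin-alpha, a synaptic scaffold gene, the 540 nt intron (chr2L:6727323-6727862, plus strand) was low in siTsu cells only, at 5.70% and 3.12% in siTsu, 23.2% and 23.4% in siAcn and 20.2% and 12.5% in siGFP cells (siTsu adjusted p = 0.0677, limma). In Caps, a chromosome 4 gene of dense core vesicle release, the 1168 nt intron was at 56.4% and 55.2% in siAcn, 192% and 131% in siTsu and 157% and 119% in siGFP cells. Its siAcn index was the lowest (adjusted p = 0.0775, limma), while in siTsu cells the intron had 13.7 and 9.605 RPKM against 35.2 and 24.1 RPKM in siGFP cells, and the transcript 7.14 and 7.35 RPKM against 22.4 and 20.2 RPKM.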
